A study of Mus musculus with 12 samples.

Results

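The comparison described here is the difference between 2 genotype effects in regulatory T cells (Tregs): the change from control to Tbet flox in perigonadal white adipose tissue (PGWAT) minus the same change in spleen. All 12 arrays of the series, 4 groups of 3 assigned by title, enter it, so its samples are 12 of 12. A positive difference means that Tbet flox moved a gene further up, or less far down, in PGWAT than in spleen. Every group came from C57BL/6 mice on a high fat diet and carried Foxp3Cre, which makes the Cre recombinase under the Foxp3 promoter. Control mice carried Foxp3Cre alone and Tbet flox mice Foxp3Cre with a floxed Tbet allele. The age of the mice is not given in the sources used here. The labels do not say whether arrays of a group came from separate animals, so the p-values reflect spread among these arrays only, and that may be technical. Genes named by rule were restricted to those with a detection p under 0.01 on all 3 arrays of at least 1 group, which 8154 of the 10882 named genes tested met, except for 4 genes of the T-bet axis named in any case.

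T-bet, encoded by Tbx21, is the transcription factor of type 1 T cells and switches on Ifng and the chemokine receptor gene Cxcr3. Tregs are CD4 T cells that use Foxp3 to restrain immune responses. Those of visceral fat form a distinct population with high Gata3, Il10, Klrg1 and Pparg, while spleen Tregs are mostly of a circulating, lymphoid kind. The comparison asks whether a T-bet allele removed in Tregs matters in the same way in both places.

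Spread differed between the tissues, while their numbers of detected probes overlapped. Of 45281 probes, an array detected 11252 to 16164 in PGWAT and 14280 to 17090 in spleen at p under 0.01. The median signal was 82.4 to 97.1 in PGWAT and 98.5 to 115 in spleen. Across genes, arrays of a group correlated at 0.774 to 0.872 in PGWAT and at 0.978 to 0.991 in spleen. A gene's median SD within a group, in log2 units, was 0.552 in PGWAT controls, 0.496 in PGWAT Tbet flox, 0.187 in spleen controls and 0.15 in spleen Tbet flox. PGWAT arrays therefore gave 92.5% of the variance of the difference, so the 8 residual degrees of freedom of the fit overstate its precision. Its median 95% interval reached 1.15 log2 units to either side, and both the number of arrays and the spread among those of PGWAT limit the precision. Each tissue lay on a chip of its own with the control arrays in the first positions, so the genotypes were compared within a chip, and position on the chip and genotype cannot be told apart. By the Foxp3 probe used, the brightest of 3, Foxp3 was lowest of the 12 arrays on PGWAT control 1, though not by the other 2 probes, and detected probes were fewest on PGWAT Tbet flox 3, and values without both are given where they bear on a result.

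In 14 named genes the Tbet flox genotype had a different effect in the 2 tissues. It was higher in PGWAT for 10 of them, led by Fam183b, Mterf1a, Mterf1b and Tnik, and lower for 4, led by Pik3ap1. Of the 18 genes and unnamed probes past a limma adjusted p under 0.05, all 18 had the larger absolute change in PGWAT, as did 74.2% of everything tested. For 17 of them the spleen change was under 0.5 log2 units in size, as it was for 90.6% of everything tested. No list of type 1, type 2, Treg or heat shock genes had a member past the threshold. Ifng, a T-bet target, measured lower in Tbet flox in both tissues, and so did the mean of Cxcr3, whose groups overlapped in PGWAT.

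The 18 were 0.118% of the 15308 genes and unnamed probes tested, 13 with a higher difference (0.0849%) and 5 with a lower one (0.0327%). Without adjustment 1681 had a limma p under 0.05, which is 11.0% of all. PGWAT groups did not overlap for all 18, against 14.5% of everything tested, and spleen groups did not overlap for 4, against 23.1%. Since a gene that passed had to differ, the first of these shares is a description. Differences of the 18 ran from 1.79 to 4.30 log2 units in size, so the smallest was a 3.45-fold difference between the tissues' genotype ratios. These sizes hold for background-corrected values: with the authors' processed values, the differences of the 14 named genes ran from 0.80 to 2.33 in size instead of 1.79 to 3.99, and 13 of the 14 shrank by over 1.5 times. Quantile normalization without background correction likewise gave 0.79 to 2.31, and an offset of 50 gave 1.09 to 2.94. The same holds for the folds given below. No spleen array was above background for 7 of the 18, and for these the spleen change is a difference between dim values. The count of 18 moved between 2 and 354 when 1 array was left out and was 0 with a separate variance for each group (972 at an unadjusted p under 0.05). All 18 stayed past the threshold without any 1 PGWAT array, while only 2 to 5 did without any 1 spleen array. The fit pools a gene's variance over the 4 groups, and spleen arrays spread less, so leaving out a PGWAT array tends to lower it. Fits without a PGWAT array called 52 to 354 in all, so staying past the threshold in them is no check on the PGWAT arrays.

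**Figure D1:**
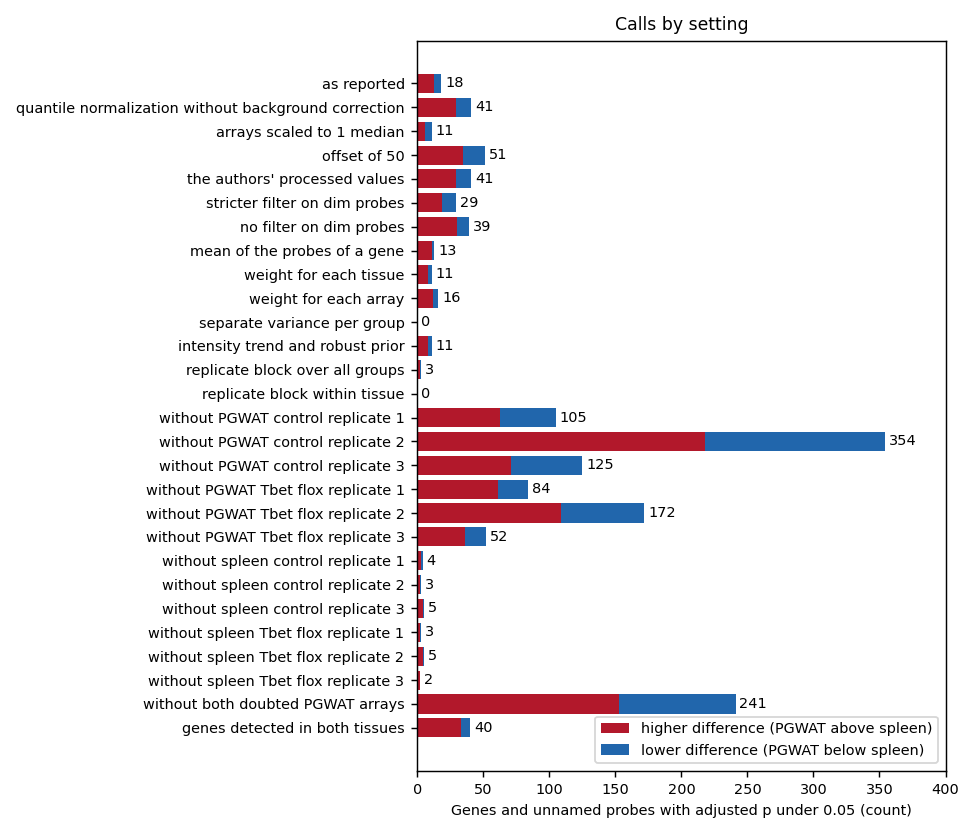
Bars count the genes and unnamed probes with an adjusted p under 0.05 for the difference (x axis, count from 0) under each processing setting (y axis), red for a higher and blue for a lower genotype effect in PGWAT than in spleen. The count was 18 as reported, 354 without PGWAT control 2 and 2 without spleen Tbet flox 3.

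A pair of near-identical genes stood among the largest differences. Mterf1a and Mterf1b encode the mouse copies of a mitochondrial transcription termination factor, and a probe of one may also bind the other's transcript, so their values are uncertain as separate genes. Their starts lie on the same chromosome. The RefSeq promoter windows of build GRCm38.p6, from 250 bases before to 50 after each start, show how alike the copies are there. Most of each window lies before the start, so it does not show how alike the transcripts are. Which transcript each probe binds was not tested. Over 293 aligned bases 291 were identical (99.3%), and capitals mark the 2 that differ. The Mterf1a window lies at chr5:3893884-3894183 on the minus strand and that of Mterf1b at chr5:4192117-4192416 on the plus strand, each printed 5′ to 3′.
Mterf1a: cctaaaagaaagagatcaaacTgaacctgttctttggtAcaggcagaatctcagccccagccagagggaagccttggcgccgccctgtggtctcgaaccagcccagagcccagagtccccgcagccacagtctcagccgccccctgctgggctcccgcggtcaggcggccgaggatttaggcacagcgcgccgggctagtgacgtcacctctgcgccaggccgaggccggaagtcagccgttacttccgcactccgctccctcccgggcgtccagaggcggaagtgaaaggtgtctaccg
Mterf1b: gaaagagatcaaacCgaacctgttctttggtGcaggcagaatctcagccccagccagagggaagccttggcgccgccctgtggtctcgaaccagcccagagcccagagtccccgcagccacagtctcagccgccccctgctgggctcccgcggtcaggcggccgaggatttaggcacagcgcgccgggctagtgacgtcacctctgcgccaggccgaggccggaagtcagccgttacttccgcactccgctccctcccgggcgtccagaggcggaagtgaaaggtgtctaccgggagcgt

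On the arrays Mterf1a measured 4.41, 4.35 and 4.27 in PGWAT controls and 8.42, 7.41 and 8.93 in PGWAT Tbet flox, as normalized log2 intensities. Its spleen levels were 8.90, 9.35 and 9.03 in control and 9.25, 9.13 and 9.11 in Tbet flox. It was thus dim on all 3 PGWAT control arrays and bright on the other 9. The difference between tissues was 3.84 ± 0.47 (SE; limma adjusted p = 0.0117), and its other probe gave 3.60. Mterf1b measured 4.41, 4.60 and 4.35 in PGWAT controls against 7.71, 7.59 and 8.56 in PGWAT Tbet flox, with 8.76, 9.25 and 8.98 in spleen controls and 9.15, 9.12 and 9.03 in spleen Tbet flox. It followed the same pattern, with a difference of 3.39 ± 0.38 (SE; limma adjusted p = 0.00838), but its other probe gave -0.04. In PGWAT, Mterf1a was at least 9.24-fold higher in Tbet flox than in control. Such a bound applies where no probe of a gene was above background on any array of the dimmer group, and it is taken against each such array's lowest signal called present, or the probe's own where higher.

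Other genes of gene regulation went both ways. Hlf, a transcription factor gene of the PAR bZIP family, measured 4.41, 4.56 and 4.44 in PGWAT controls and 6.56, 7.08 and 7.42 in PGWAT Tbet flox. No spleen array and no PGWAT control array was above background, so Hlf was measurable only in PGWAT Tbet flox, where it was at least 3.94-fold higher than in control (difference 2.63 ± 0.33 SE, limma adjusted p = 0.0135). Sox7, a transcription factor gene of endothelium, had the opposite course, with 6.73, 6.09 and 6.52 in PGWAT controls and 4.76, 4.38 and 4.46 in PGWAT Tbet flox. It was above background on the 3 PGWAT control arrays alone, and its difference was -2.02 ± 0.31 (SE; limma adjusted p = 0.0464), with -1.96 by its other probe. Isy1, a splicing factor gene, was above background on all 12 arrays. It measured 7.74, 7.78 and 7.61 in PGWAT controls against 9.34, 9.31 and 9.39 in PGWAT Tbet flox. In spleen it measured 7.61, 7.77 and 7.27 in control and 7.46, 7.30 and 7.44 in Tbet flox, where the groups overlapped. At 1.79 ± 0.28 (SE; limma adjusted p = 0.0464) its difference was the smallest of the 14.

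Among signalling genes the differences also had both signs. Tnik, a kinase of the Wnt pathway, measured 4.71, 5.29 and 4.37 in PGWAT controls and 7.49, 7.33 and 7.73 in PGWAT Tbet flox. Its spleen levels went the other way, at 7.19, 7.18 and 7.06 in control and 6.53, 6.80 and 6.85 in Tbet flox. Groups did not overlap in either tissue, and the difference was 3.14 ± 0.36 (SE; limma adjusted p = 0.00838), against 0.42 by its other probe. Pik3ap1 encodes BCAP, an adaptor that links immune receptors to PI3 kinase. It measured 7.34, 7.21 and 7.27 in PGWAT controls and 4.48, 4.96 and 4.70 in PGWAT Tbet flox, and all spleen arrays lay between 4.50 and 4.86. By this probe Pik3ap1 was above background in PGWAT controls and on at most 1 array of each other group, with a difference of -2.70 ± 0.28 (SE; limma adjusted p = 0.00625). Its other probe gave -1.12, with 5.17, 6.45 and 4.38 in PGWAT Tbet flox against 6.83, 5.97 and 6.64 in the controls of that tissue, which overlap. Rab11fip1, an effector of Rab11 on recycling endosomes, measured 4.56 ± 0.33 in PGWAT controls and 6.47 ± 0.11 in PGWAT Tbet flox, with 5.01 ± 0.14 and 5.01 ± 0.02 in spleen (SD, n = 3 each). The difference of 1.91 ± 0.30 (SE; limma adjusted p = 0.0481) was the closest of the 14 to the threshold.

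The other called genes have varied roles. Mmp25, a membrane-anchored metalloprotease of leukocytes, measured 4.34, 4.28 and 4.34 in PGWAT controls and 6.44, 6.32 and 6.71 in PGWAT Tbet flox, and it was not above background in spleen. In PGWAT it was at least 2.72-fold higher in Tbet flox, and its difference was 2.20 ± 0.26 (SE; limma adjusted p = 0.0112). Mmrn1, multimerin of platelets and endothelium, measured 4.83, 4.85 and 5.19 in PGWAT controls and 7.76, 7.10 and 6.91 in PGWAT Tbet flox. In spleen it was bright throughout and lower in Tbet flox, at 8.17, 8.01 and 7.81 against 7.56, 7.75 and 7.64. The groups did not overlap in either tissue, with a difference of 2.65 ± 0.36 (SE; limma adjusted p = 0.0213). Galnt3, which starts O-linked glycosylation, had the largest spleen change of the called genes. It measured 4.88, 4.59 and 4.34 in PGWAT controls and 6.78, 6.52 and 6.19 in PGWAT Tbet flox, but 5.13, 6.10 and 5.58 in spleen controls and 4.77, 4.43 and 5.00 in spleen Tbet flox. In PGWAT it was at least 2.72-fold higher in Tbet flox, and the difference was 2.76 ± 0.42 (SE; limma adjusted p = 0.04).

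Rxylt1, which glycosylates dystroglycan, measured 7.13, 7.52 and 7.37 in PGWAT controls and 4.60, 5.45 and 5.25 in PGWAT Tbet flox. All 6 spleen arrays lay between 6.50 and 6.91, so this gene was low in PGWAT Tbet flox alone (difference -2.37 ± 0.35 SE, limma adjusted p = 0.036). Fxyd2, a regulatory subunit of the sodium pump, measured 6.78, 7.01 and 6.39 in PGWAT controls and 4.75, 4.81 and 4.43 in PGWAT Tbet flox. It was not above background in spleen, and the difference was -2.20 ± 0.32 (SE; limma adjusted p = 0.0308), with -1.15 by its other probe. The most significant named gene of all was Fam183b, a gene of ciliated cells. It measured 4.65, 4.55 and 4.30 in PGWAT controls and 8.57, 9.12 and 8.63 in PGWAT Tbet flox, against 4.36, 4.40 and 4.52 in spleen controls and 4.85, 4.76 and 4.52 in spleen Tbet flox. Only the PGWAT Tbet flox arrays were clearly bright, at least 13.2-fold above control, and the difference was 3.99 ± 0.31 (SE; limma adjusted p = 0.000443).

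**Figure D2:**
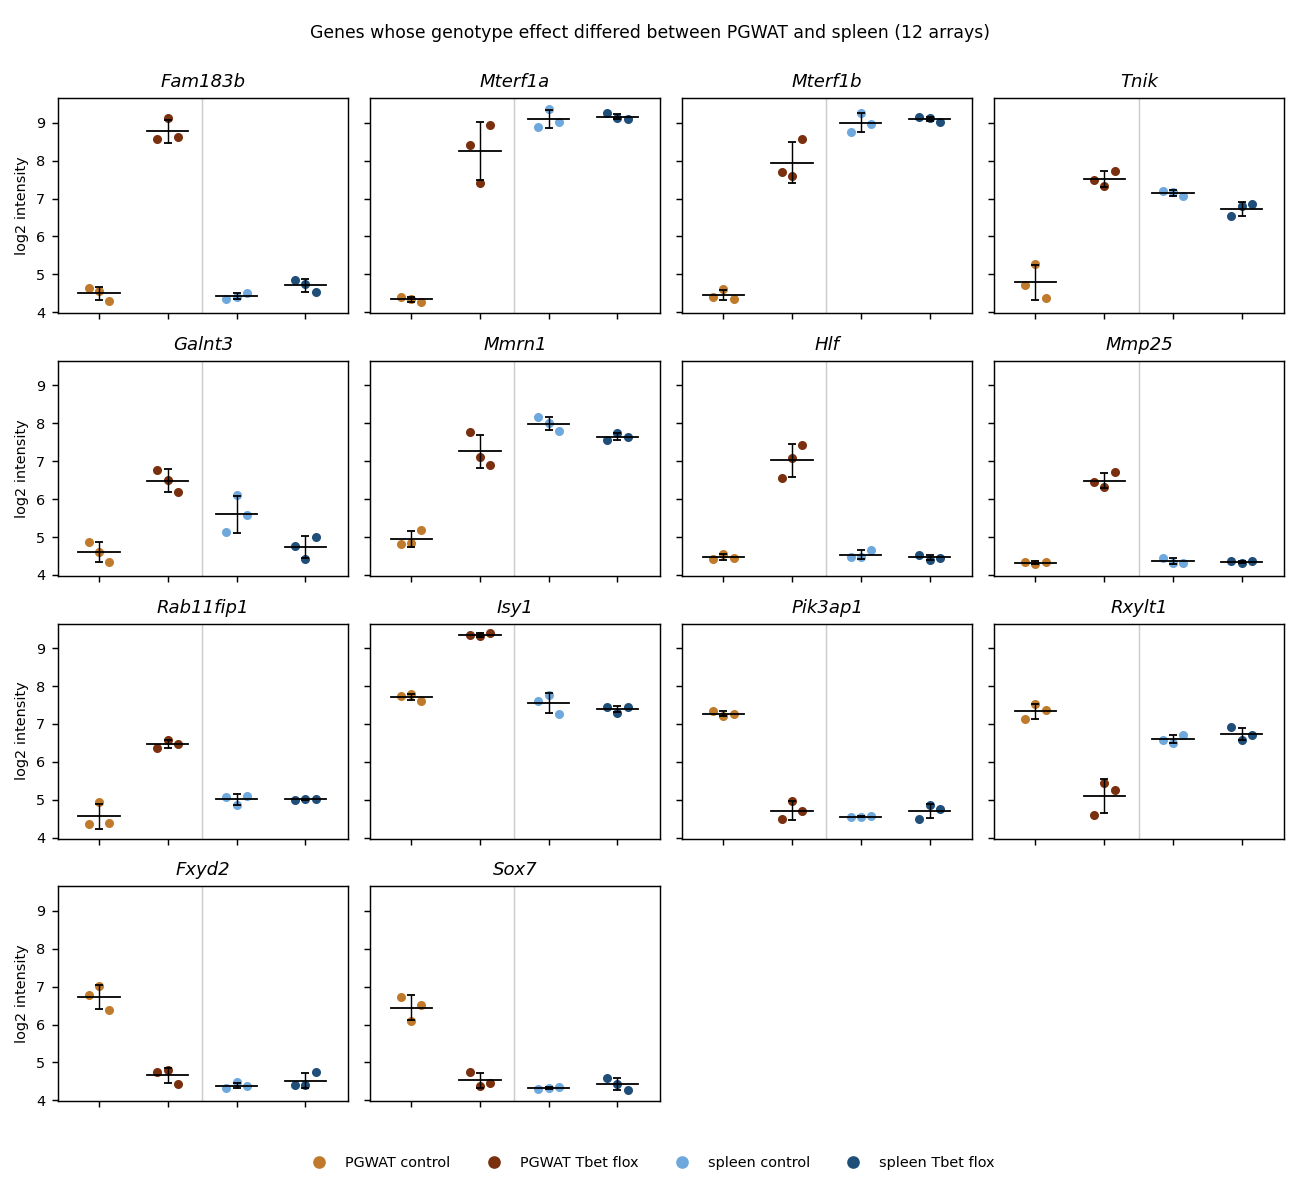
Each panel shows 1 called gene, with normalized log2 intensity on the y axis and the 4 groups side by side from left to right as in the legend; points are arrays, and bars are the mean ± SD of 3. PGWAT control and PGWAT Tbet flox do not overlap in any panel, and Fam183b is bright, at 8.57 to 9.12, in PGWAT Tbet flox alone.

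Of the 4 unnamed probes called, 3 were higher and 1 lower, and they are given here as chosen after their values were seen. ILMN_1230278 had the largest difference of all 15308, 4.30 (limma adjusted p = 0.000443), and was above background on the 3 PGWAT Tbet flox arrays alone. ILMN_2526875 had the largest fall, -3.32 (limma adjusted p = 0.0216), and was not above background on any spleen array.

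Robustness differed among the 14 named genes. Fam183b stayed past the threshold in each of 12 fits without 1 array, Pik3ap1 in 11, Mterf1b in 9 and Tnik in 8. The other 10 did so in 6, being lost whenever any 1 spleen array was left out. Pik3ap1 was lost without spleen Tbet flox 3, at a limma adjusted p of 0.0503. With a weight for each tissue, 8 of the 14 remained: Fam183b, Hlf, Mmp25, Mmrn1, Mterf1a, Mterf1b, Pik3ap1 and Tnik. All 14 remained without both doubted PGWAT arrays, but that fit called 241 in all, with a median standard error of 0.447 against 0.52. It pools the variance with fewer of the widely spread PGWAT arrays, so it is no check on them. With a separate variance for each group 0 of the 18 remained. Averaging the probes of a gene ended the calls of Mterf1b (adjusted p = 0.0806), Tnik (0.0663), Pik3ap1 (0.108), Fxyd2 (0.125) and Sox7 (0.133) in limma.

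A short stretch of letters that T-box factors are known to bind, GGTGTGA on either strand, was looked for in promoter windows. RefSeq windows of 300 bases were at hand for 10 of the 14 called genes, and 0 of these 10 held it, as did 0 of 2 for Ifng and Cxcr3. Of all 32851 windows 3.98% held it. These letters are only a match, and their absence from these windows says nothing of T-bet binding elsewhere.

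The floxed gene itself was measured by 1 dim probe. Tbx21 measured 4.62, 7.40 and 4.96 in PGWAT controls and 8.45, 4.86 and 4.54 in PGWAT Tbet flox. In spleen it measured 4.80, 6.03 and 4.95 in control and 4.94, 4.98 and 4.71 in Tbet flox. One array in each PGWAT group was high and the groups overlapped in both tissues. The difference between tissues was 0.68, with a 95% interval from -2.34 to 3.70 (limma adjusted p = 0.894), and it turned to -0.57 without PGWAT Tbet flox 1. The files do not show whether the probe lies in the floxed part, so its level checks neither the deletion nor the labels.

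Ifng and Cxcr3, genes that T-bet switches on, had lower means in Tbet flox in both tissues. The type 1 list went both ways, with 9 lower and 6 higher in PGWAT and 11 lower and 4 higher in spleen. Ifng, the cytokine of type 1 cells, measured 9.52, 9.97 and 9.02 in PGWAT controls and 6.81, 6.21 and 4.83 in PGWAT Tbet flox. In spleen it measured 7.10, 7.84 and 7.11 in control and 5.51, 4.82 and 5.32 in Tbet flox. The groups did not overlap in either tissue, and the genotype changes were -3.55 and -2.13 log2 units. Their difference of -1.42 ± 0.66 had a 95% interval from -2.88 to 0.04 (limma adjusted p = 0.474). Thus no difference between the tissues was found, while one of -2.88 log2 units was within the interval. Without PGWAT Tbet flox 3 the difference was -0.86. Cxcr3, which guides T cells to type 1 inflammation, measured 5.92, 7.59 and 7.998 in PGWAT controls and 7.81, 5.23 and 4.46 in PGWAT Tbet flox. Its spleen levels were 7.93, 8.53 and 7.65 in control and 5.00, 4.38 and 4.67 in Tbet flox. The spleen groups lay far apart and the PGWAT groups overlapped, PGWAT Tbet flox 1 being as bright as a control. That array also had the highest Tbx21 level. The Cxcr3 changes of -1.34 in PGWAT and -3.35 in spleen differed by 2.01 ± 1.08 (95% interval -0.38 to 4.40, limma adjusted p = 0.532), and by 1.02 without PGWAT Tbet flox 1.

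Ccl3, a chemokine gene of activated T cells and macrophages, came nearest to the threshold in the type 1 list. It measured 8.04, 7.78 and 8.01 in PGWAT controls, 5.54, 6.03 and 4.36 in PGWAT Tbet flox, and was not above background in spleen (difference -2.63 ± 0.49, limma adjusted p = 0.0711). Without PGWAT control 2, Tbet flox 2 or Tbet flox 3 the adjusted p was 0.0332, 0.0155 and 0.0237. Without any 1 spleen array it was 0.179 to 0.24. With all arrays, the limma adjusted p of Ccl3 was 0.0279 with an offset of 50 and 0.0394 without background correction. With the authors' processed values it was 0.0403. The other settings with all arrays left Ccl3 above 0.05 where it was tested, such as 0.139 with an intensity trend and robust prior. In the fit as reported, 0 of 15 type 1 genes measured, T-bet included, passed. An unadjusted limma p under 0.05 was reached by 1 of them, and by 11.0% of everything tested. The median difference of the list was 0.14 beside 0.05 over all genes, and it was -0.00 with arrays scaled to 1 median.

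**Figure D3:**
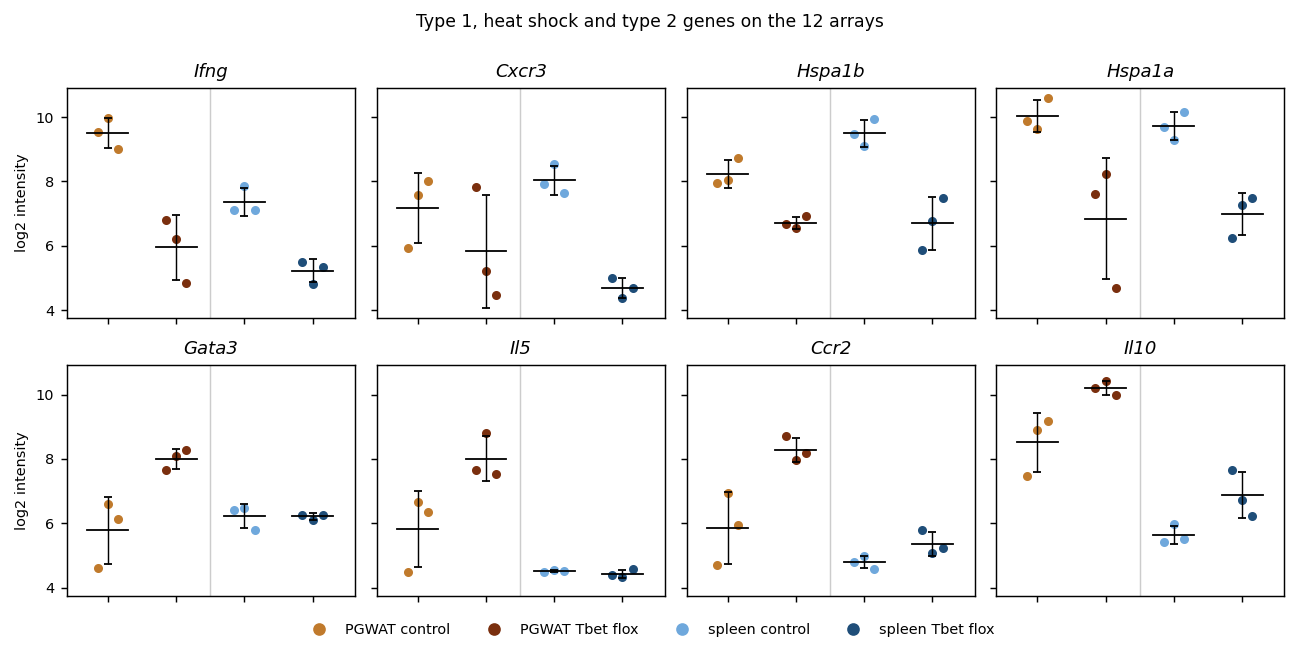
Panels show 8 genes of the type 1, heat shock, type 2 and adipose lists, with normalized log2 intensity on the y axis, the 4 groups from left to right as in the legend, points for arrays and bars for the mean ± SD of 3. Ifng is lower in Tbet flox in both tissues, while Gata3 and Il5 are higher in PGWAT Tbet flox alone, with PGWAT control 1 the lowest of its group.

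Genes of the type 2 and adipose Treg lists leaned to a larger rise in PGWAT without passing the threshold. Gata3, the factor of type 2 cells that tissue Tregs also use, measured 4.62, 6.59 and 6.13 in PGWAT controls and 7.65, 8.10 and 8.26 in PGWAT Tbet flox. The spleen levels were level and overlapped, at 6.41, 6.49 and 5.80 against 6.27, 6.10 and 6.27. The difference of 2.25 ± 0.61 had a 95% interval from 0.89 to 3.60 (limma adjusted p = 0.19), and passed only without PGWAT control 2 (0.0404). Ccr2, a receptor for monocyte-attracting chemokines, measured 4.69, 6.94 and 5.93 in PGWAT controls and 8.70, 7.96 and 8.18 in PGWAT Tbet flox. Its spleen levels were 4.81, 4.98 and 4.59 against 5.78, 5.08 and 5.23, so by this probe the groups did not overlap in either tissue. The difference was 1.85 (limma adjusted p = 0.344), and without PGWAT control 2 its adjusted p was 0.0462, while without PGWAT control 1 the difference was 1.27. The other Ccr2 probe gave 1.05, with spleen groups that overlapped.

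Of 9 measured type 2 genes 0 passed and 4 had an unadjusted limma p under 0.05, all 4 with a higher difference, a direction that 6.64% of everything tested shared at that level. They were Gata3, Il5 (2.27), Il13 (1.35) and the receptor gene Il4ra (1.20), of which the last 3 are named after their values were seen. Il5 was not above background in spleen. Of 15 measured adipose signature genes 0 passed and 3 had an unadjusted limma p under 0.05, Gata3, Ccr2 and Il5, all higher, with 12 of 15 differences above 0. The medians were 1.17 for the type 2 list and 0.78 for the adipose list, against 0.05 over all genes. By the probes used, PGWAT control 1 was the lowest of its group in Gata3, Il5, Ccr2 and Foxp3, but by the other Ccr2 probe it was the highest. Without it the adipose median was 0.18 and that of the type 2 list 0.65. Without both doubted arrays the adipose median was 0.28 and that of the type 2 list 0.53.

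Other genes of the adipose signature measured higher in Tbet flox in both tissues, and are named after their values were seen. Il10, the suppressive cytokine, measured 7.46, 8.91 and 9.16 in PGWAT controls and 10.19, 10.41 and 9.99 in PGWAT Tbet flox. In spleen it measured 5.42, 5.97 and 5.52 in control and 7.65, 6.73 and 6.24 in Tbet flox. Klrg1, a receptor of differentiated T cells, measured 7.86, 9.88 and 8.20 against 10.36, 11.03 and 10.90 in PGWAT, and 7.30, 8.71 and 7.86 against 9.69, 9.19 and 8.99 in spleen. For both genes the groups did not overlap in either tissue. The difference was 0.45 for Il10 (95% interval -0.98 to 1.88, limma adjusted p = 0.839) and 0.78 for Klrg1 (-0.82 to 2.38, adjusted p = 0.73), and that of Il10 was -0.07 without PGWAT control 1.

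Treg identity genes showed no difference past the threshold. Foxp3 measured 5.44, 7.69 and 9.50 in PGWAT controls, 7.62, 8.74 and 8.70 in PGWAT Tbet flox, 8.91, 8.39 and 8.58 in spleen controls and 8.39, 8.83 and 8.41 in spleen Tbet flox. It was above background on all 12 arrays, with PGWAT control spread widest. The difference of 0.90 ± 1.09 (95% interval -1.51 to 3.31, limma adjusted p = 0.804) was -0.15 without PGWAT control 1, and the other probes gave -0.27 and -0.33. Of 16 measured Treg core genes 0 passed, and 1 had an unadjusted limma p under 0.05, where 11.0% of everything tested did. That gene was Nrp1, a surface receptor of thymus-derived Tregs, at 10.01 ± 0.30 in PGWAT controls, 9.39 ± 0.29 in PGWAT Tbet flox, 9.67 ± 0.10 in spleen controls and 9.79 ± 0.07 in spleen Tbet flox (difference -0.75, limma adjusted p = 0.434). The core list's median was 0.63, or 0.33 without PGWAT control 1 and 0.22 without both doubted arrays.

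Most heat shock chaperone genes measured lower in Tbet flox in both tissues, 13 of 14 in PGWAT and 12 of 14 in spleen. Hspa1b, an inducible chaperone gene, measured 7.94, 8.04 and 8.74 in PGWAT controls and 6.66, 6.55 and 6.92 in PGWAT Tbet flox. In spleen it measured 9.47, 9.08 and 9.93 against 5.85, 6.76 and 7.49, so the groups did not overlap in either tissue. The spleen change was the larger, and the difference was 1.26 (95% interval 0.02 to 2.50, limma adjusted p = 0.448). Its near copy Hspa1a, named after its values were seen, changed by -3.18 in PGWAT and -2.72 in spleen, a difference of -0.46 (limma adjusted p = 0.909). The opposite signs of such alike genes leave the direction uncertain, and another Hspa1b probe gave -1.29. Hsph1, a partner of these chaperones, had a difference of -1.12 (limma adjusted p = 0.441). Of 14 measured chaperone genes 0 passed and 11 had a lower difference. An unadjusted limma p under 0.05 was reached by 2 of them, and by 11.0% of everything tested. Their median change was -0.43 in PGWAT and -0.24 in spleen, and the median difference was -0.29. Without PGWAT Tbet flox 3 it was -0.09, with 8 of 14 lower, and without both doubted arrays -0.08.

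**Figure D4:**
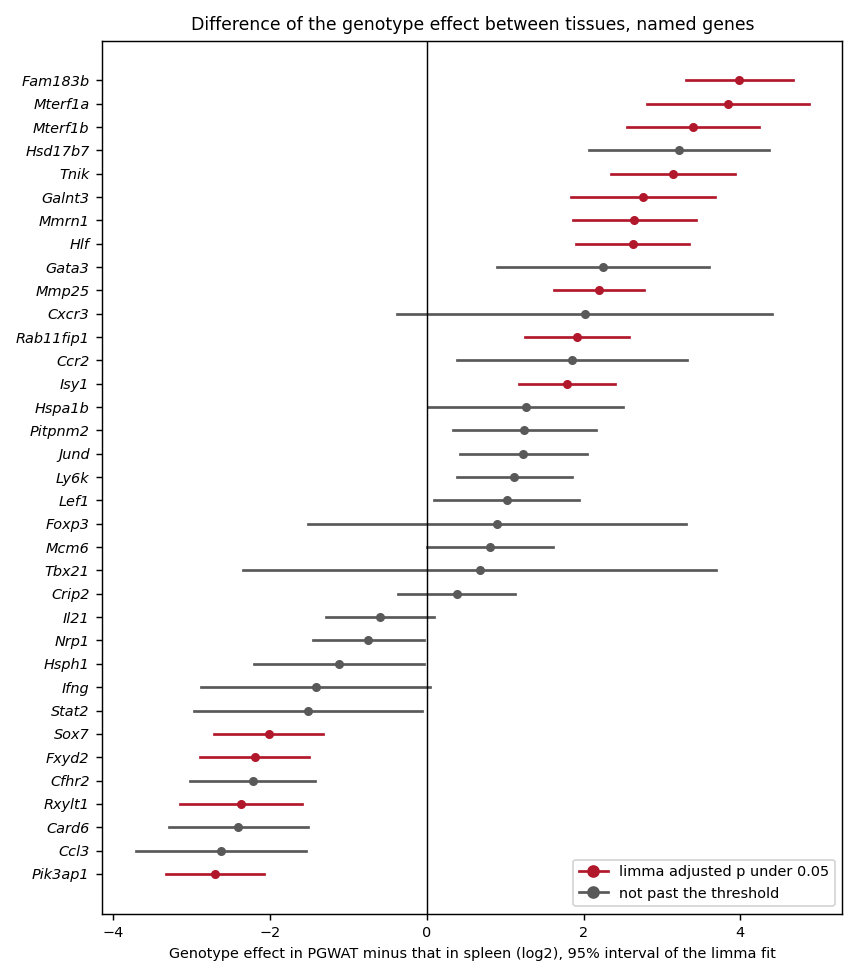
Points are the difference of the genotype effect between PGWAT and spleen (x axis, log2) for the 35 genes named by rule, with 95% intervals of the limma fit, and red marks an adjusted p under 0.05. Hsd17b7, Card6, Cfhr2 and Ccl3 lie as far from 0 as many called genes but missed the threshold, and the widest intervals are those of Tbx21, Foxp3 and Cxcr3.

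The lists of other pathways also had 0 members past the threshold. In lipid handling, 13 were measured and 3 had an unadjusted limma p under 0.05, as did 11.0% of everything tested. Hsd17b7, an enzyme of cholesterol synthesis, measured 6.13, 7.15 and 5.52 in PGWAT controls and 9.28, 9.12 and 9.80 in PGWAT Tbet flox, with spleen levels of 8.34, 8.66 and 8.39 against 8.37, 8.16 and 8.60. PGWAT control was low, the spleen groups were level and PGWAT Tbet flox lay above them. The difference of 3.22 ± 0.52 just missed the threshold (limma adjusted p = 0.0529). It passed without any 1 of PGWAT control 1, 2 or 3 (0.0454, 0.00481 and 0.0288) or Tbet flox 1 or 2 (0.045 and 0.029), fits that called more genes as a whole. Without any 1 spleen array the limma adjusted p of Hsd17b7 was 0.139 to 0.212. With all arrays it was 0.0263 with the authors' processed values, 0.0264 without background correction and 0.0279 with an offset of 50. The stricter filter gave 0.0467, and genes detected in both tissues 0.0408. The other settings with all arrays left it above 0.05, such as 0.054 with a weight for each tissue and 0.0633 with no filter on dim probes. Abca1 (-2.44) and Scd2 (-1.28) were the other 2. The median of the list was -0.34, but 0.08 without PGWAT control 1, 0.01 without PGWAT Tbet flox 1, -0.02 without PGWAT Tbet flox 3 and 0.28 without both doubted arrays.

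Over everything tested, 11.0% had an unadjusted limma p under 0.05. Of 21 measured immediate early genes 4 did, with Jund, a member of the AP-1 factors, at 1.23 (limma adjusted p = 0.229). Of 15 interferon response genes 1 did, the transcription factor gene Stat2 at -1.51 (adjusted p = 0.44 by limma). Of 15 cell cycle genes 1 did, the replication helicase gene Mcm6 at 0.81 (limma adjusted p = 0.453), whose other probes gave 0.27, -0.71 and -1.19. Of 11 lymphoid homing and resting genes 1 did, Lef1, a factor of resting T cells, at 1.02 (limma adjusted p = 0.413), whose other probes gave 0.22, -0.18 and -0.43. Of 14 tissue homing receptors 3 did, Ccr2, Itgb7 and Selplg. Of 6 type 17 genes 0 did, and Il21, the cytokine gene with the smallest p, was at -0.60 (adjusted p = 0.52 by limma). Median differences were 0.15 for immediate early genes, -0.06 for the interferon response, 0.40 for the cell cycle, 0.22 for resting genes, 0.64 for homing receptors and -0.55 for type 17 genes. Those of the first 2 changed sign, to -0.04 with arrays scaled to 1 median and to 0.04 with the stricter filter. Leaving out 1 PGWAT array moved the interferon median between -0.22 and 0.26, that of immediate early genes between 0.03 and 0.21, of the cell cycle between 0.15 and 0.73 and of resting genes between 0.21 and 0.46.

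Further genes named by rule lay near the threshold or changed in 1 tissue. Cfhr2, a complement factor H related gene, measured 7.36, 6.80 and 7.02 in PGWAT controls and 4.85, 5.26 and 4.34 in PGWAT Tbet flox, and was not above background in spleen (difference -2.22, limma adjusted p = 0.0529). The other Cfhr2 probe gave -0.57, with PGWAT groups that overlapped. With the mean of its probes the limma adjusted p of Cfhr2 was 0.155. Card6, of the caspase recruitment domain family, measured 6.61, 7.23 and 7.15 in PGWAT controls and 4.69, 5.12 and 4.73 in PGWAT Tbet flox, with 8.27 ± 0.51 and 8.53 ± 0.06 in spleen (difference -2.40, limma adjusted p = 0.0548). Both passed without PGWAT control 1, 2 or 3. Without any 1 spleen array the limma adjusted p was 0.139 to 0.212 for Cfhr2 and 0.13 to 0.212 for Card6. With a weight for each tissue it was 0.0553 and 0.216. In spleen the smallest p values for genotype included Ly6k, Crip2 and Pitpnm2. Ly6k, a member of the Ly6 family, measured 7.46, 7.07 and 7.52 in spleen controls and 5.98, 6.65 and 5.95 in spleen Tbet flox and was not above background in PGWAT. Crip2, a LIM protein gene, measured 6.17 ± 0.23 and 5.08 ± 0.30 in spleen and 8.98 ± 0.19 and 8.27 ± 0.24 in PGWAT, lower in Tbet flox in both. The differences were 1.12 for Ly6k, 0.38 for Crip2 and 1.25 for Pitpnm2, a phosphatidylinositol transfer protein gene, with limma adjusted p of 0.229, 0.719 and 0.285.

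**Figure D5:**
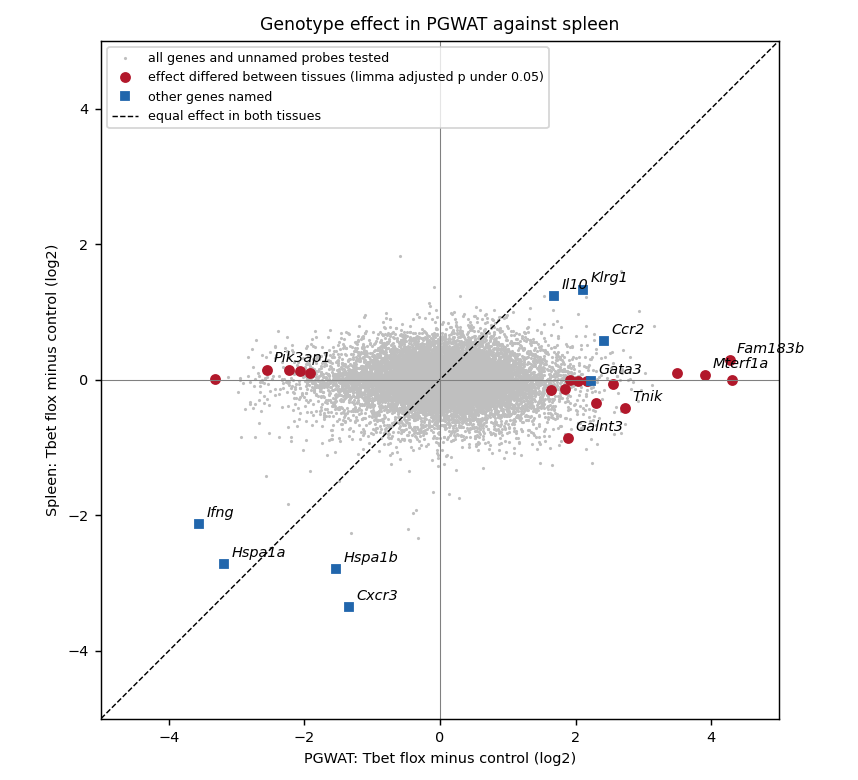
Each point is 1 gene or unnamed probe, with the genotype change in PGWAT on the x axis and that in spleen on the y axis (both log2, Tbet flox minus control); the dashed line marks an equal change in both tissues. Called genes (red) lie along the x axis, while Hspa1a, Il10 and Klrg1 lie nearer to the dashed line and Ifng lies below 0 on both axes.

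Across all 15308, the genotype change had an SD over genes of 0.76 log2 units in PGWAT and 0.302 in spleen. Pearson's r between the 2 changes was 0.0113. This is a description across genes, which are not independent replicates, and the 2 changes share no array. Both SDs hold spread among arrays, wider in PGWAT, as well as any genotype change. Such spread also makes r smaller in size, so r does not show that the genotype effects were unrelated. Ifng, Hspa1a and Hspa1b measured lower and Il10 and Klrg1 higher in Tbet flox in both tissues, with groups that overlapped in neither. The same held for Crip2, which was lower, and by the probe used for Ccr2, which was higher. These genes are named after their values were seen. Of everything tested, groups did not overlap for 14.5% in PGWAT and 23.1% in spleen. The share without overlap in both was not counted, so these genes are examples only.

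Markers of some other cell types leaned to 1 side in their differences between the tissues' genotype effects, without passing the threshold. All 14 measured macrophage and monocyte markers had a lower difference, with a median of -1.45, but 0 passed. An unadjusted limma p under 0.05 was reached by 2, Lyz1 and C1qa, and by 11.0% of everything tested. C1qa, a complement gene of tissue macrophages, measured 8.68, 9.55 and 9.83 in PGWAT controls, 7.71, 7.12 and 5.22 in PGWAT Tbet flox, 5.43, 5.77 and 5.69 in spleen controls and 5.07, 5.03 and 4.87 in spleen Tbet flox. Summed on a linear scale, the macrophage markers ran from 23350 to 25426 in PGWAT controls, 4054 to 17740 in PGWAT Tbet flox, 4337 to 5256 in spleen controls and 3938 to 4379 in spleen Tbet flox. The genotype groups did not overlap in PGWAT. The median was -0.52 without PGWAT Tbet flox 3, with 10 of 14 lower. In such bulk samples, fewer cells of a type and less RNA per cell cannot be told apart.

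Of 10 dendritic cell markers 8 had a lower difference (median -0.83, or -0.49 without PGWAT Tbet flox 3). An unadjusted limma p under 0.05 was reached by 2 of the 10, and by 11.0% of everything tested. The summed levels of these markers ran from 16323 to 16936 in PGWAT controls, 3023 to 11643 in PGWAT Tbet flox, 1592 to 2171 in spleen controls and 1235 to 1744 in spleen Tbet flox. Of 9 stromal and endothelial markers 7 had a lower difference (median -1.19, or -0.37 without PGWAT control 1 and -0.12 without both doubted arrays), and the sums ran from 2799 to 11899 in PGWAT controls, 2081 to 4306 in PGWAT Tbet flox, and 302 to 343 in spleen. Col1a2, Col3a1, Dcn, Sparc and Aplnr were not above background on any spleen array. Sox7, Ccl3 and Pik3ap1, genes that endothelium or myeloid cells also use, and Gata3 moved on the same arrays, and the part of these other cells in their differences was not tested. T cell identity genes went the other way, with 9 of 10 higher (median 0.56, or 0.35 without PGWAT control 1 and 0.31 without both doubted arrays) and sums of 4323 to 7931 in PGWAT controls, 8813 to 9496 in PGWAT Tbet flox, 10183 to 10807 in spleen controls and 9856 to 10636 in spleen Tbet flox.

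Of 5 mast cell markers all 5 had a higher difference (median 0.41), but only 3 did without PGWAT Tbet flox 1 (median 0.00). Among them was Cpa3, a mast cell protease gene, at 4.44, 5.89 and 4.47 in PGWAT controls and 8.62, 7.32 and 7.29 in PGWAT Tbet flox (difference 2.80, limma adjusted p = 0.105, or 1.80 with the mean of its probes). Their sums ran from 971 to 1217 in PGWAT controls, 908 to 2037 in PGWAT Tbet flox, 127 to 191 in spleen controls and 126 to 167 in spleen Tbet flox. Medians were 0.68 for 3 B cell markers, 0.50 for 7 CD8 and NK cell markers, 0.31 for 5 adipocyte markers and 0.29 for 3 red cell markers, each with 0 members past the threshold. Leaving out 1 PGWAT array moved these between 0.24 and 1.04, -0.04 and 0.78, -0.44 and 0.38, and -0.02 and 1.07. Adipoq, Lep and Cidec, the defining adipocyte genes measured, were not above background on any spleen array.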

How the data were processed

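Tregs of 4 groups were measured on 12 single-colour Illumina arrays. Per the labels' protocols, RNA was amplified and biotin labelled, and per the submitters' processing notes GenomeStudio (version not stated) was used. The authors deposited non-normalized signal intensities with a detection p-value for each probe, per the file headers, and a table of processed linear intensities, used as an alternative, whose normalization is not given in the sources used here.

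Signals were background corrected by detection p-value and quantile normalized (neqc of limma 3.58.1, R 4.3.3, offset 16, log2). Probes with p under 0.05 on at least 3 arrays were kept (22833), and the brightest stood for its gene, leaving 10882 named genes and 4426 unnamed probes. Of all probes 34885 had 1 symbol, 18 several and 10378 none, and 34807 were matched by Entrez ID. A limma model with 1 mean per group tested the interaction, two-sided with Benjamini-Hochberg adjustment over 15308. It was also run on simulated data with independent normal noise, which did not cover arrays that stray as a whole.

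Named were genes past the threshold, filled to 6 per direction, the member of each list with the smallest p, the 5 genes with the smallest p for genotype per tissue, and Tbx21, Foxp3, Ifng and Cxcr3. Members and lists were chosen with earlier results of these data known. Alternatives covered background, scaling, offset, filters, probes, weights, moderation, the replicate block and each array left out.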

Additional observations from a re-analysis of the deposited data

Results flagged for a closer look

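The genotype effect of 14 named genes and 4 unnamed probes differed between PGWAT and spleen by the interaction term of limma. The higher differences, in log2 units, were 3.99 for Fam183b, 3.84 for Mterf1a, 3.39 for Mterf1b, 3.14 for Tnik, 2.76 for Galnt3 and 2.65 for Mmrn1. Hlf followed at 2.63, Mmp25 at 2.20, Rab11fip1 at 1.91 and Isy1 at 1.79. The lower ones were -2.70 for Pik3ap1, -2.37 for Rxylt1, -2.20 for Fxyd2 and -2.02 for Sox7. The unnamed probes with the largest values were ILMN_1230278 at 4.30 and ILMN_2526875 at -3.32.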

How the results depend on the processing

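The 18 calls became 41 with quantile normalization without background correction, 51 with an offset of 50, 41 with the authors' processed values, 29 with a stricter filter on dim probes and 39 with none. They became 11 with arrays scaled to 1 median, 11 with a weight for each tissue and 11 with an intensity trend and robust prior. Scaling to 1 median moved the median difference of all genes from 0.05 to -0.07 and the share of higher calls from 72.2% to 54.5%. The mean of a gene's probes gave 13 and a weight for each array 16. Limma called 0 with a replicate block within tissue (smallest adjusted p 0.0674, 1681 at an unadjusted p under 0.05) and 3 with a replicate block over all groups. A separate variance per group also gave 0 (smallest adjusted p 0.184, 972 at an unadjusted p under 0.05). Same-numbered arrays correlated in their deviations at -0.199 to 0.0782, 0 of 18 pairs lay over 0.1, and 2 of 12 arrays correlated best with their own number, so the numbers were not read as pairs. Leaving out 1 array gave 2 to 354 calls, namely 52 to 354 without a PGWAT array and 2 to 5 without a spleen array. The median standard error was 0.52 with all arrays, 0.489 to 0.522 without a PGWAT array and 0.575 to 0.584 without a spleen array. Of the alternatives chosen after seeing the data, leaving out both doubted PGWAT arrays gave 241, and restricting to genes detected in both tissues gave 40 of 7274. All 18 were kept with the offset of 50 and both filters, 15 without background correction, 13 with the mean of probes, 10 with either weight, 11 with the trend and 9 with arrays scaled to 1 median. The direction reversed for genes that had not passed. With the mean of probes the difference was -0.21 for Mcm6 and -0.015 for Hspa1b. That of Crip2 was -0.16 without background correction, -0.0093 with the offset of 50 and -0.15 with the authors' values. Leaving out 1 array gave -0.57 to 1.55 for Tbx21, -0.15 to 1.88 for Foxp3, -0.075 to 0.84 for Il10 and -1.16 to 0.61 for Hspa1a. Without both doubted arrays Foxp3 was -0.33 and Hspa1a 0.53. The cause of each change was not tested. Chip as a block was not run, since each tissue lay on its own chip. Dim signal limits the smaller changes: 7 of the 18 had no spleen array above background.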

Other observations

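Some signalling genes had higher differences that did not pass over all 15308, and are named after their values were seen, as a description. Notch1, the receptor gene of the Notch pathway, measured 4.98, 4.79 and 5.35 in PGWAT controls and 6.51, 5.99 and 6.64 in PGWAT Tbet flox, against 7.12, 7.20 and 6.92 in spleen controls and 6.27, 6.78 and 6.59 in spleen Tbet flox. It was above background on 1 of 3 PGWAT control arrays, the groups overlapped in neither tissue, and the difference was 1.88 (limma adjusted p = 0.0711). Map3k14, the kinase gene NIK of the alternative NF-kappaB pathway, measured 6.46, 6.25 and 6.57 in PGWAT controls and 7.60, 7.43 and 7.93 in PGWAT Tbet flox, against 6.41, 6.15 and 5.76 in spleen controls and 5.22, 5.70 and 5.52 in spleen Tbet flox. It was measurable on all 12 arrays, with a difference of 1.85 (limma adjusted p = 0.0711) or 1.04 with the authors' processed values.

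Tnfrsf25, a death receptor gene that also costimulates Tregs, measured 4.68, 5.23 and 5.34 in PGWAT controls and 6.44, 6.53 and 6.64 in PGWAT Tbet flox, while the spleen groups overlapped at 6.62 ± 0.19 and 6.42 ± 0.10 (SD, n = 3 each). The difference was 1.66 (limma adjusted p = 0.0737), and 0.92 with the mean of its probes. Several settings carried these genes past the threshold, among them leaving out PGWAT control 2, which gave limma adjusted p of 0.0399 for Notch1, 0.0379 for Map3k14 and 0.0302 for Tnfrsf25. That fit called 354 in all. Other settings moved them away: with a weight for each tissue the limma adjusted p was 0.201, 0.252 and 0.19 in the same order. With an intensity trend and robust prior it was 0.205, 0.205 and 0.243.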
